A study of Mus musculus with 9 samples.

Results

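Chemokines and inflammatory cytokines were followed as 51 gene symbols of the 56481 in a mouse RNA sequencing count table. Membership was set by name: 37 symbols of the Ccl and Cxcl families, and 14 further genes (Cx3cl1, Il1a, Il1b, Il1rn, Il6, Il11, Il18, Il33, Lif, Tnf, Csf1, Csf2, Csf3 and Tslp). No measured value entered that choice. At least 1 count in any library was found for 47 of the 51, and Ccl26, Ccl21b, Ccl21d and Ccl27b had none.

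The study made 3 libraries each of primary neural crest cells (pNCC), of induced corneal endothelial cells (iCEC) and of primary corneal endothelial cells (pCEC), with no genotype or strain named in the labels. pNCC came from E13.5 embryos and, like pCEC, were kept in DMEM with 10% fetal bovine serum. iCEC were neural crest cells moved to a medium with 5% knockout serum replacement and SB431542 at 5 µM, which blocks the type I receptor of TGF-β, and were characterised on day 12. The medium of iCEC thus differed from that of the other groups in its serum as well as in the inhibitor, and effects of the pair cannot be told apart. The labels give neither the age of the animals behind pCEC nor whether replicates came from separate animals or cultures, so a p-value speaks only of the scatter among these libraries, which may be technical.

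Chemokines are small secreted or membrane-bound proteins that draw leukocytes towards their source along a gradient. The CC and CXC families are named for the spacing of their first cysteines, and each ligand binds a limited set of receptors on particular leukocytes. Cytokines of the IL-1, IL-6 and TNF families start or restrain inflammation, and many of these genes are transcribed after NF-kB enters the nucleus. In the cornea, these signals govern how many leukocytes enter a tissue that has to stay clear.

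Library totals ran from 27389292 to 47967113 counts, so that 3 counts equalled 0.0625 to 0.110 CPM (counts scaled to the library total). The labels of the groups were only partly met. Of 14 corneal endothelium markers, 8 were higher and 3 lower in pCEC than in pNCC (30.3% and 32.2% of all genes tested). In iCEC, 6 were higher and 3 lower than in pNCC (16.1% and 15.1% of all genes tested). Against pCEC, 2 were higher and 3 lower in iCEC (10.5% and 9.92% of all genes tested). The 4 corneal epithelium markers summed to 33547 to 38404 CPM in pCEC, 43.5 to 139 CPM in iCEC and 0 to 4.78 CPM in pNCC. The 13 neural crest markers summed to 435 to 760 CPM in pNCC, 321 to 852 CPM in iCEC and 251 to 380 CPM in pCEC. The library iCEC 3 stood apart, at a distance of 1.73 and 1.80 (root mean square difference in log2 CPM per gene) from the other iCEC libraries, which lay 1.17 from each other; distances within pNCC and within pCEC were at most 0.935. The libraries pCEC 2 and 3 are labelled total RNA and all others polyA RNA. Counts of calls are therefore given also without iCEC 3 and with pCEC 1 as the sole pCEC library.

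Promoter sequences are shown first because several of these genes sit side by side and carry a known regulatory motif. The 3 neighbours Cxcl1, Cxcl2 and Cxcl3 on chromosome 5 encode neutrophil attractants. Cxcl12 and Csf1 were among the members with the highest mean CPM in any group. Cxcl5, Ccl2, Ccl7 and Ccl11 were also among these but had no RefSeq window here. Il33 and Il1rn, with means of 279 and 180 CPM in iCEC, exceeded Cxcl1, had windows without a match and are not shown. The shown windows are therefore not a fair sample of the members. The windows of Cxcl2, Cxcl3, Cxcl10 and Ccl8 were chosen after their values were seen. Each window runs from 170 to 31 bases before a RefSeq transcription start (build GRCm38.p6), 5′ to 3′ on the gene's strand, and capitals mark matches to the NF-kB consensus on either strand.
Cxcl1, chr5:90891075-90891214, plus strand: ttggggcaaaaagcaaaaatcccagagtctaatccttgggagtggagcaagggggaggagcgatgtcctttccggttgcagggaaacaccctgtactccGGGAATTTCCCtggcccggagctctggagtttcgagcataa
Cxcl2, chr5:90903729-90903868, plus strand: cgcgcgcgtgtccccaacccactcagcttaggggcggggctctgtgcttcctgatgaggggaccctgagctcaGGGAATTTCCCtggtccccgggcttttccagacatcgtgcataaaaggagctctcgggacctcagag
Cxcl3, chr5:90785931-90786070, plus strand: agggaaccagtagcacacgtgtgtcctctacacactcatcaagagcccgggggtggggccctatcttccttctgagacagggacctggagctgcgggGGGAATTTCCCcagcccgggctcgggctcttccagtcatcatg
Cxcl10, chr5:92348920-92349059, minus strand: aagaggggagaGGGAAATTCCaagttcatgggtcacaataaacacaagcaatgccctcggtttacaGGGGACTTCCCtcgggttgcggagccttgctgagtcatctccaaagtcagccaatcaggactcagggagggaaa
Csf1, chr3:107760500-107760639, minus strand: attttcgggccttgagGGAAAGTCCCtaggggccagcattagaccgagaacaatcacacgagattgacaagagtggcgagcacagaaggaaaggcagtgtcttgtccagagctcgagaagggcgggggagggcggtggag
Cxcl12, chr6:117168365-117168504, plus strand: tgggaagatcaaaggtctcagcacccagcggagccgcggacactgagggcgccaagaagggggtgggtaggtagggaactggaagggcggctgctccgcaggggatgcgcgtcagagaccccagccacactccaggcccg
Ccl8, chr11:82115015-82115154, plus strand: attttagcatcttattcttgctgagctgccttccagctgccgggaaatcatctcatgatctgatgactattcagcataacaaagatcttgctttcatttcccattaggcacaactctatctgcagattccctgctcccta

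Cxcl1, Cxcl2 and Cxcl3 share the same run of 11 capitals, GGGAATTTCCC, which holds 2 overlapping matches on opposite strands. In the windows of 300 bases that the RefSeq table gives around each start, the site as Cxcl1 has it, GGGAATTTCC (either strand), was present in 29 of 32851 windows (0.0883%), and 3 of those genes were these members. The broader NF-kB consensus, which includes that site, was found for 11 of the 38 members with a window (28.9%) and for 9.55% of the 27025 genes in the table. Cxcl10 held it at separate places, Csf1 held it once, and the shown windows of Cxcl12 and Ccl8 held no match. A match is a description of letters, and no binding was measured.

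A gene is called here when its adjusted p is under 0.05 in edgeR's quasi-likelihood test with Benjamini-Hochberg adjustment over all genes tested; folds with their SE come from that fit on the log2 scale. Between iCEC and pNCC, 33 members could be tested and 16 were called, 8 higher and 8 lower in iCEC (48.5%, where 31.3% of all genes tested were called, 16.1% higher and 15.1% lower). The median log2 fold change was 0.24 over the tested members and 0.05 over all genes tested. Between pCEC and pNCC, 7 of 33 tested members were higher and 18 lower (75.8%, against a background of 62.5%, made of 30.3% higher and 32.2% lower), with medians of -1.54 and -0.01. Between iCEC and pCEC, 10 of 30 tested members were higher in iCEC and 3 lower (43.3%, against a background of 20.4%, made of 10.5% higher and 9.92% lower), with medians of 2.90 and 0.04. The pNCC libraries served both of the first comparisons, and a member tested through the group where it was high had to differ, so these counts do not cover the members left untested.

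Without iCEC 3, 15 members were higher and 10 lower in iCEC than in pNCC, of 34 tested, while 44.4% of all genes were called; the 16 calls were kept and 9 were added. In the comparison with pCEC, leaving it out gave 15 members higher and 3 lower in iCEC, of 33 tested, with 28.7% of all genes called. With pCEC 1 as the sole pCEC library, 6 members were higher and 18 lower in pCEC than in pNCC, 22 of the calls were kept, and 49.8% of all genes were called. That arm then holds 1 library, so the spread comes from the other group alone and this library is assumed to vary like it. For iCEC against pCEC, the outcome with pCEC 1 alone is given in the closing section. With all libraries, edgeR called 3327 of 16278 genes between iCEC and pCEC, and DESeq2's Wald test called 4888. Of the 16 calls between iCEC and pNCC, 8 held when each library was left out in turn (Ccl8, Ccl11, Cxcl14, Cxcl16, Cx3cl1, Il18, Lif and Csf1), and the other 8 (Ccl2, Ccl7, Ccl20, Cxcl9, Cxcl17, Il1rn, Il6 and Tnf) were lost when any single pNCC library was left out. Ccl2, Ccl7 and Il6 were also lost without iCEC 2, and Cxcl9 without iCEC 1 or iCEC 2. Between iCEC and pCEC, the calls of Cxcl1, Cxcl16, Lif and Csf1 held without each library, and each of the other 8 called members with a mean of at least 1 CPM lost its call without at least 1 pCEC library.

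**Figure D1:**
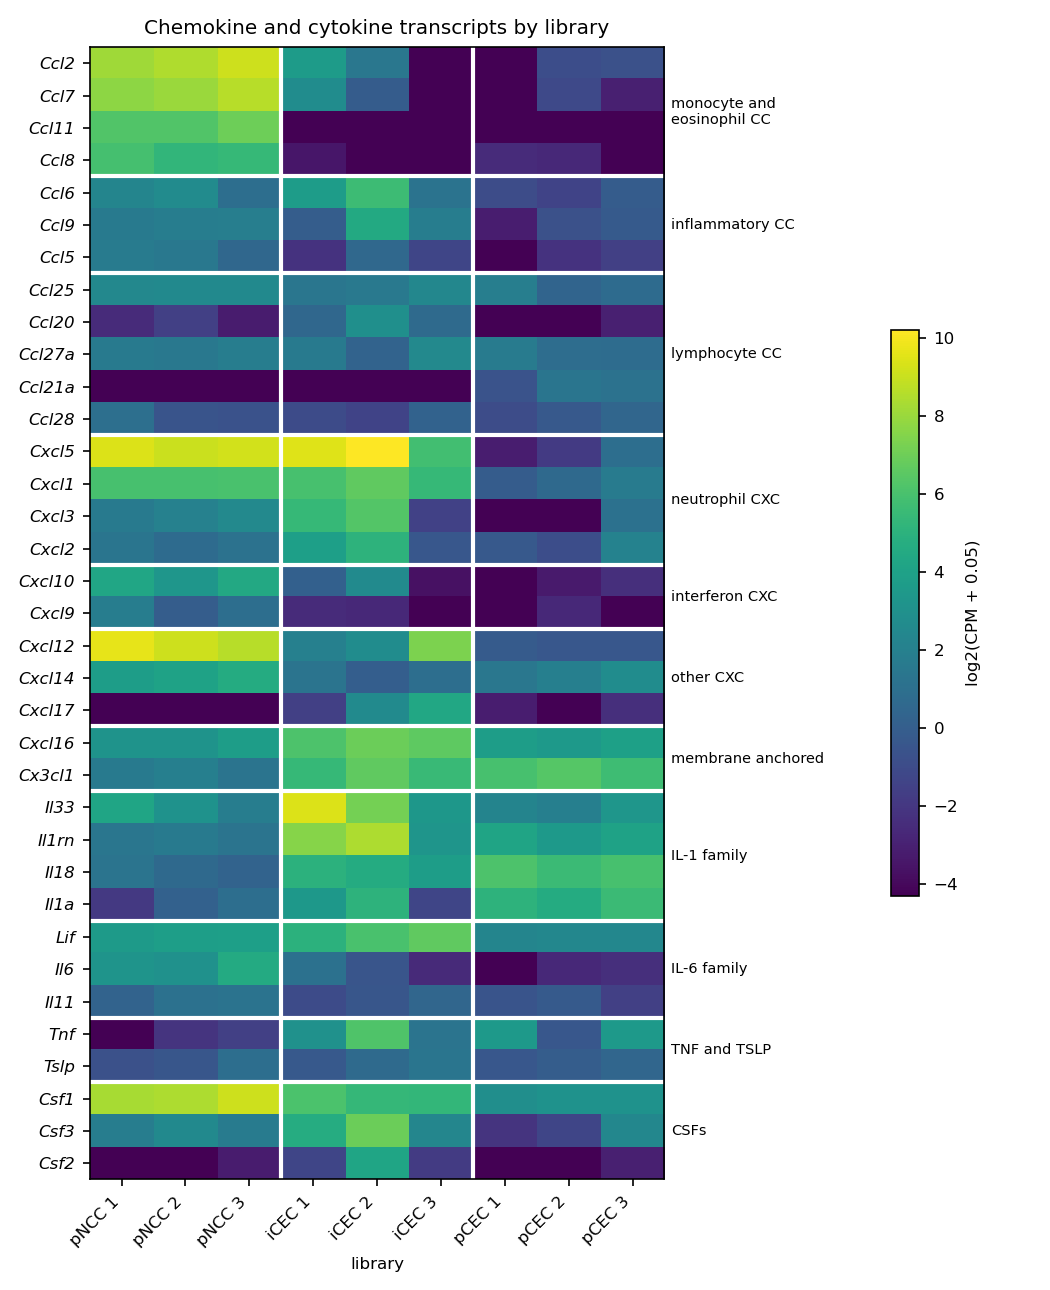
Heat map of the level of each described member (rows, grouped by role) in each of the 9 libraries (columns), as log2 of CPM with an offset of 0.05 CPM. Ccl2, Ccl7, Ccl11 and Ccl8 stand out in the pNCC columns, from 37.4 to 548 CPM, and iCEC 3 differs from iCEC 1 and 2 in Cxcl3, Il33, Il1rn and Cxcl12.

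The members as a set made up much more of the RNA in pNCC and in iCEC 1 and 2 than in pCEC. Their summed level was 2343 to 2864 CPM in pNCC, 2078 CPM in iCEC 1, 2601 CPM in iCEC 2, 638 CPM in iCEC 3 and 215 to 267 CPM in pCEC. Per kilobase of exon, the leading members were Ccl7 (365 CPM per kb), Ccl2 (348) and Cxcl5 (323) in pNCC. In iCEC they were Cxcl5 (354 CPM per kb) and Il33 (96.7), with Cxcl5 ranging from 30.0 to 636 between libraries, and in pCEC they were Il18 (59.1), Il1a (17.9) and Cx3cl1 (16.6). In pNCC the ranges of Ccl7, Ccl2 and Cxcl5 over libraries overlapped, so their order does not hold beyond the spread. Of the 51 members, 35 reached a mean of 1 CPM in at least 1 group and are described below, and the other 16 stayed at or below a mean of 0.876 CPM.

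Markers of other cell types also differed between groups and libraries, not all in the order of the member sums, and their part in the results was not tested. The 23 leukocyte markers summed to 28.8 to 47.3 CPM in pNCC, to 127, 201 and 18.5 CPM in iCEC 1, 2 and 3, and to 97.7, 78.4 and 325 CPM in pCEC 1, 2 and 3. Ptprc, which encodes the pan-leukocyte surface protein CD45, was at 0 in every iCEC library and between 0.0586 and 1.22 CPM elsewhere. Adgre1, Tyrobp, Lyz2, C1qa and C1qb were also at 0 in iCEC, and Cd3d was at 0 in all 9 libraries. Of the other markers, S100a9, Cd68, Itgam and S100a8 were higher in iCEC 1 and 2 than in iCEC 3. S100a9 was at 81.7, 58.4 and 0 CPM in iCEC 1, 2 and 3, Cd68 at 30.9, 51.9 and 2.80 CPM, Itgam at 5.02, 76.2 and 0 CPM and S100a8 at 8.44, 8.28 and 0.0893 CPM. In pNCC, Cd68 was at 2.37 to 4.13 CPM and the other 3 did not exceed 0.176 CPM. Csf1r, the receptor gene for Csf1, ran the other way, at 0.167, 0.708 and 15.5 CPM in iCEC 1, 2 and 3. Lyz2 and Laptm5 were highest in pNCC, at 12.6 to 23.6 CPM and 4.57 to 11.7 CPM. The 11 fibroblast markers summed to 28449 to 47378 CPM in pNCC, 44.9 to 153 CPM in iCEC and 995 to 9317 CPM in pCEC, and the 12 surface epithelium markers to 92.8 to 143, 16063 to 23293 and 26044 to 36555 CPM. In bulk RNA, fewer cells of a type and less RNA per cell cannot be told apart.

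The monocyte and eosinophil attractants of the CC family were, as a sum, abundant in pNCC and far lower in both other groups. Of the 7 members with this role 4 could be tested, and those 4 were lower in iCEC and lower in pCEC than in pNCC. Over all genes tested, 15.1% were lower in iCEC and 32.2% lower in pCEC. Ccl11, Ccl2, Ccl7, Ccl8 and the scarce Ccl12 lie together on chromosome 11, between 82035571 and 82116799 (GRCm38), with no other protein-coding gene inside. Ccl11 (eotaxin, chromosome 11, 82057823 to 82062955, plus strand), which draws eosinophils through CCR3, was at 77.2, 78.2 and 126 CPM in pNCC 1, 2 and 3 and had no count in any iCEC or pCEC library. It was at least 1207-fold lower in iCEC (adjusted p = 0.000816, edgeR) and at least 998-fold lower in pCEC (adjusted p = 4.34e-05), taking 3 counts per library as the floor. Counts of Ccl11 were thus seen in pNCC alone.

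Ccl2, the main CCR2 ligand for monocytes, was at 283, 359 and 548 CPM in pNCC, at 12.4, 2.64 and 0 CPM in iCEC 1, 2 and 3, and at 0, 0.499 and 0.548 CPM in pCEC. The pNCC libraries were far above all others, and iCEC 1 kept the highest level outside pNCC. Against pNCC it was 75.9-fold lower in iCEC (log2 -6.25, SE 1.73, adjusted p = 0.0380, edgeR) and 1048-fold lower in pCEC (log2 -10.03, SE 0.82, adjusted p = 5.99e-05). Leaving out 1 library raised the adjusted p of the first of these to as much as 0.104. Ccl7, a further monocyte attractant, followed with 218, 263 and 396 CPM in pNCC, 6.55, 0.872 and 0 CPM in iCEC, and 0, 0.416 and 0.0730 CPM in pCEC. It was 113-fold lower in iCEC (adjusted p = 0.0263, edgeR) and 1525-fold lower in pCEC (adjusted p = 3.58e-05). For both genes iCEC and pCEC overlapped and were not called apart, with adjusted p of 0.256 and 0.248.

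Ccl8, which acts on monocytes and eosinophils, was at 60.2, 37.4 and 42.3 CPM in pNCC, at 0.0417, 0 and 0 CPM in iCEC and at 0.120, 0.111 and 0 CPM in pCEC. Since iCEC held only 2 counts in all, the difference there is a ratio of summed counts of 2741 (95% counting interval 758 to 22642; adjusted p = 0.000492, edgeR). In pCEC it was 500-fold lower (log2 -8.97, SE 0.46, adjusted p = 7.39e-06). Ccl12, Ccl24 and Ccl26, the other members with this role, stayed at or below 0.628 CPM in every library.

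The neighbouring group of CC genes (Ccl5, Ccl9, Ccl6, Ccl3 and Ccl4; 83525778 to 83664683 on chromosome 11, 1409 kb from the first) behaved differently. Its sum in pNCC was only 7.02 to 12.8 CPM. Of its 3 tested genes none was called between iCEC and pNCC, where 31.3% of all genes tested were called. All 3 were lower in pCEC than in pNCC, as were 32.2% of all genes tested. Ccl6, a mouse chemokine for myeloid cells, was at 4.85, 6.28 and 1.86 CPM in pNCC, 13.1, 50.7 and 2.23 CPM in iCEC and 0.479, 0.333 and 0.876 CPM in pCEC. Its iCEC and pNCC ranges overlapped through iCEC 3, and without that library it was 7.93-fold higher in iCEC (adjusted p = 0.0196, edgeR). Against pCEC, Ccl6 was 37.5-fold higher in iCEC with all libraries (adjusted p = 0.0317, edgeR) and 6.96-fold higher in pNCC (adjusted p = 0.00442). It overlaps a gene on the other strand, and the counting is not stated to use strand.

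Ccl9, which also acts on myeloid cells, was at 3.11, 3.46 and 3.60 CPM in pNCC, 0.917, 22.7 and 3.51 CPM in iCEC and 0.0598, 0.555 and 0.803 CPM in pCEC. It was high in iCEC 2 alone, and it was 6.50-fold lower in pCEC than in pNCC (adjusted p = 0.0138, edgeR). Ccl5 (RANTES), an attractant of T cells and monocytes, was at 3.23, 2.76 and 1.37 CPM in pNCC, 0.167, 1.47 and 0.357 CPM in iCEC and 0, 0.166 and 0.292 CPM in pCEC. It was 14.5-fold lower in pCEC (adjusted p = 0.00662, edgeR), while iCEC overlapped pNCC (adjusted p = 0.189, and 9.96-fold lower with an adjusted p of 0.0216 without iCEC 2). Ccl3 and Ccl4, macrophage inflammatory proteins, did not exceed 0.333 CPM in any library.

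Of the 12 CC chemokines that mainly draw lymphocytes or dendritic cells, 5 were described. Ccl20, the ligand of CCR6 and a product of epithelia, was at 0.124, 0.293 and 0.0571 CPM in pNCC, 1.38, 7.60 and 1.55 CPM in iCEC and 0, 0 and 0.0730 CPM in pCEC. All iCEC libraries lay above all others. It was 23.3-fold higher in iCEC than in pNCC (log2 4.54, SE 1.09, adjusted p = 0.0238, edgeR; up to 0.103 with 1 library left out), and its summed counts were 163 times those of pCEC (95% counting interval 44.7 to 1347; adjusted p = 0.0213). Ccl21a, a ligand of CCR7, was found in pCEC alone, at 0.598, 2.50 and 2.19 CPM, which was at least 19.8-fold above pNCC (adjusted p = 0.00234, edgeR) and at least 22.6-fold above iCEC (adjusted p = 0.0156). Ccl21a has near-identical copies, Ccl21b and Ccl21d, which had no count, so its reads may have been assigned among copies.

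Ccl25, a ligand of CCR9, was at 5.38, 5.81 and 5.995 CPM in pNCC, 2.61, 2.89 and 5.33 CPM in iCEC and 3.62, 1.22 and 1.64 CPM in pCEC. It was 2.45-fold lower in pCEC than in pNCC (adjusted p = 0.0271, edgeR). That call was lost without any 1 of pNCC 1, 2 and 3 or pCEC 2 and 3 (adjusted p up to 0.0756), and with pCEC 1 as the sole pCEC library (1.55-fold, adjusted p = 0.155). Ccl27a and Ccl28, both CCR10 ligands, were called in no comparison and lay between 0.327 and 5.74 CPM in all libraries. Ccl25 and Ccl27a also overlap genes on the other strand.

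The neutrophil attractants of the CXC family were, as a sum, abundant in pNCC and iCEC and scarce in pCEC. Cxcl5, Cxcl3, Cxcl15, Cxcl1 and Cxcl2 lie between 90759360 and 90905938 on chromosome 5, and their summed level was 599 to 752 CPM in pNCC, 856, 1399 and 98.9 CPM in iCEC 1, 2 and 3, and 1.74, 2.22 and 11.5 CPM in pCEC. All of the described ones are ligands of CXCR2. None of the 4 tested was called between iCEC and pNCC with all libraries, 2 were lower in pCEC than in pNCC, and those 2, Cxcl5 and Cxcl1, were higher in iCEC than in pCEC.

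Cxcl5 (chromosome 5, 90759360 to 90761624, plus strand) was at 683, 529 and 591 CPM in pNCC, at 737, 1186 and 56.0 CPM in iCEC and at 0.0598, 0.222 and 1.83 CPM in pCEC. iCEC 3 lay below pNCC and the other iCEC libraries above it, and every pCEC library was lower than the rest. It was 813-fold lower in pCEC than in pNCC (log2 -9.67, SE 1.04, adjusted p = 0.000216, edgeR) and 890-fold higher in iCEC than in pCEC (log2 9.80, SE 1.90, adjusted p = 0.0168; up to 0.0774 with 1 library left out). Between iCEC and pNCC it was not called (adjusted p = 0.873).

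Cxcl1 was the steadiest of the group, with 63.4, 64.2 and 65.3 CPM in pNCC, 62.0, 99.5 and 41.8 CPM in iCEC and 0.898, 1.50 and 3.29 CPM in pCEC. It was 31.2-fold lower in pCEC than in pNCC (log2 -4.96, SE 0.47, adjusted p = 0.000116, edgeR) and 33.0-fold higher in iCEC than in pCEC (log2 5.04, SE 0.69, adjusted p = 0.00631). Levels in iCEC lay on both sides of pNCC (adjusted p = 0.830).

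Cxcl3 and Cxcl2, which share the capital run with Cxcl1 in the sequences above, were high in iCEC 1 and 2 and not in iCEC 3. Cxcl3 was at 3.11, 4.19 and 5.65 CPM in pNCC, 42.6, 79.7 and 0.298 CPM in iCEC and 0, 0 and 2.12 CPM in pCEC. Cxcl2 was at 2.42, 1.64 and 2.17 CPM in pNCC, 14.6, 34.3 and 0.714 CPM in iCEC and 0.778, 0.499 and 4.31 CPM in pCEC. With all libraries neither was called against pNCC (adjusted p = 0.151 for Cxcl3 and 0.106 for Cxcl2, edgeR). Without iCEC 3, Cxcl3 was 14.9-fold higher (adjusted p = 0.00122, edgeR) and Cxcl2 12.5-fold higher (adjusted p = 0.00210) in iCEC than in pNCC. Between pCEC and pNCC neither was called with all libraries. pCEC 3 was the high pCEC library for both, and without it Cxcl2 was 3.02-fold lower in pCEC than in pNCC (adjusted p = 0.0222, edgeR) and Cxcl3, with no count in pCEC 1 and 2, was lower too (adjusted p = 0.000799). The library pCEC 3 also held the most S100a9, a gene of neutrophils and stressed epithelium, at 191 CPM against 1.91 and 0.943 CPM in pCEC 1 and 2, and its part in this was not tested. Levels in the single library iCEC 3 were of the same order as in the other iCEC libraries for Cxcl1 and far below them for Cxcl2 and Cxcl3. Any link between the shared sequence and these levels was not tested.

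**Figure D2:**
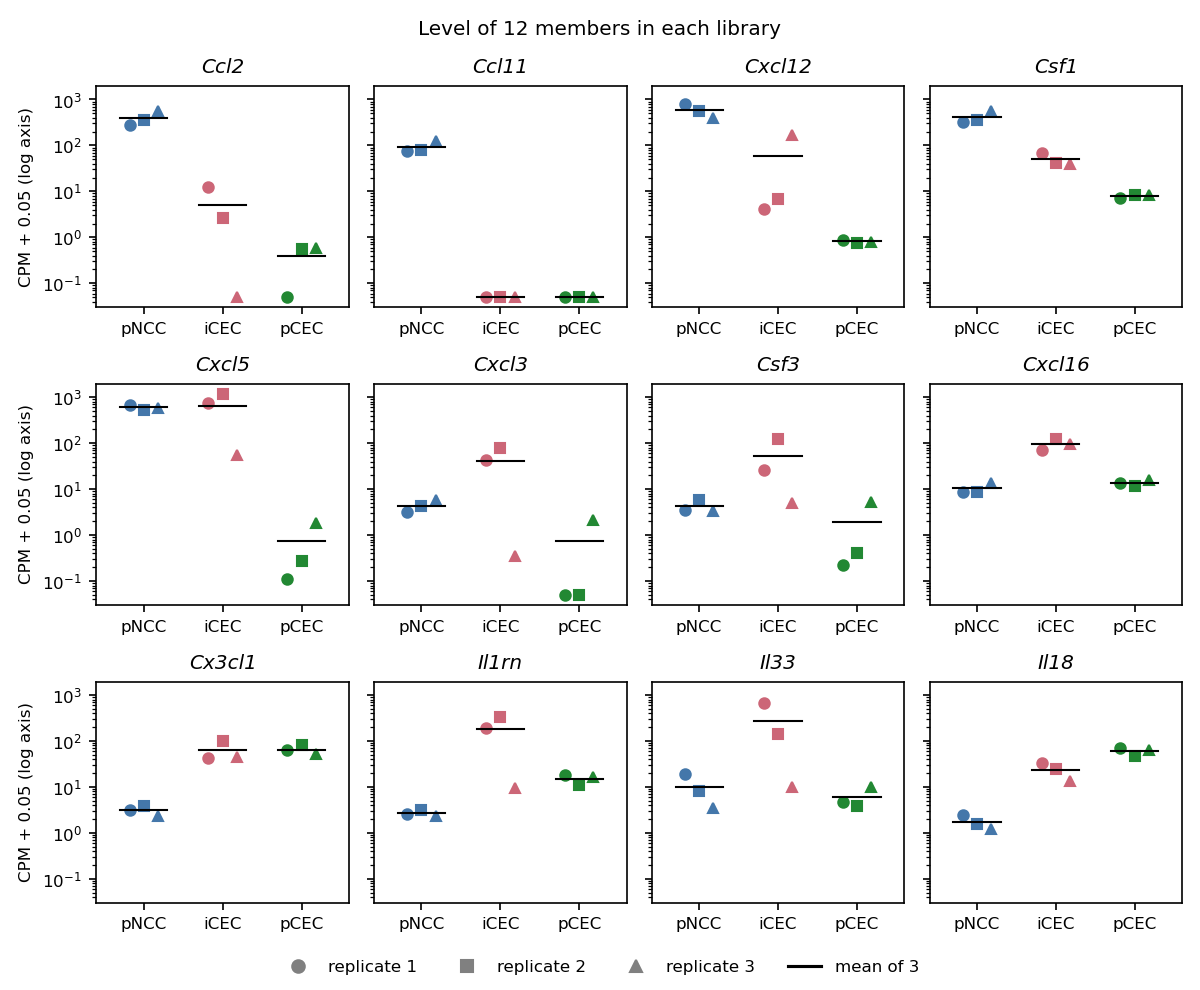
Level of leading members in each library, in CPM on a log scale with an offset of 0.05 CPM; each point is 1 library, its shape is the replicate and the bar is the mean of 3. iCEC 3 is the low iCEC point for Cxcl5 (56.0 CPM), Il33 (10.2 CPM) and Il1rn (9.43 CPM) and the high one for Cxcl12 (165 CPM).

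Cxcl9 and Cxcl10, the interferon-induced ligands of CXCR3 that draw activated T cells, were highest in pNCC. Cxcl10 was at 19.2, 10.1 and 21.6 CPM in pNCC, 1.04, 6.16 and 0.0298 CPM in iCEC and 0, 0.0555 and 0.146 CPM in pCEC. No iCEC library reached the pNCC range, yet the spread within iCEC left it uncalled (6.45-fold, adjusted p = 0.203, edgeR), and in pCEC it was 235-fold lower (log2 -7.88, SE 0.70, adjusted p = 7.97e-05). Cxcl9 was at 3.54, 0.938 and 1.83 CPM in pNCC and at or below 0.125 CPM in every other library. It was 24.1-fold lower in iCEC (adjusted p = 0.0214, edgeR; up to 0.0850 with 1 library left out) and 43.8-fold lower in pCEC (adjusted p = 0.00291). Cxcl11, the remaining gene of this group, did not exceed 0.0817 CPM.

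Cxcl12 (SDF-1; chromosome 6, 117168535 to 117181367, plus strand), the homeostatic ligand of CXCR4 made by stromal cells, was at 808, 551 and 396 CPM in pNCC, at 4.04, 6.70 and 165 CPM in iCEC 1, 2 and 3, and at 0.838, 0.721 and 0.730 CPM in pCEC. Each group was clear of the others, and iCEC 3 was the iCEC library nearest to pNCC. It was 695-fold lower in pCEC than in pNCC (log2 -9.44, SE 0.35, adjusted p = 1.92e-06, edgeR). In iCEC it was 11.1-fold lower than in pNCC but not called (adjusted p = 0.109, edgeR), and without iCEC 3 it was 103-fold lower (adjusted p = 0.000413). It was 65.7-fold higher in iCEC than in pCEC (adjusted p = 0.0420, edgeR; up to 0.150 with 1 library left out). Without iCEC 3 it was 6.93-fold higher (adjusted p = 0.00757, edgeR).

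Cxcl14, a chemokine of epithelia and fibroblasts, was at 13.6, 16.5 and 24.2 CPM in pNCC, 2.38, 0.981 and 1.85 CPM in iCEC and 2.69, 3.83 and 6.54 CPM in pCEC. pNCC exceeded both other groups in every library, by 10.5-fold over iCEC (adjusted p = 0.00345, edgeR) and 3.80-fold over pCEC (adjusted p = 0.00490). Cxcl17, a chemokine of mucosal epithelia, had no count in pNCC, was at 0.292, 6.10 and 20.7 CPM in iCEC and at or below 0.146 CPM in pCEC. Its mean in iCEC was at least 101-fold above pNCC (adjusted p = 0.0386, edgeR). It overlaps a gene on the other strand, and Cxcl13, the fourth member here, did not exceed 0.187 CPM.

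The membrane-anchored chemokines Cxcl16 and Cx3cl1 rose together in iCEC and in all its libraries. Their proteins sit on the cell surface as adhesion molecules and are shed by proteases. Cx3cl1 (fractalkine; chromosome 8, 94772009 to 94782427, plus strand), the ligand of CX3CR1, was at 3.05, 3.81 and 2.34 CPM in pNCC, 41.8, 99.4 and 45.7 CPM in iCEC and 62.4, 81.9 and 51.2 CPM in pCEC. All iCEC and pCEC libraries lay above all of pNCC, by 21.1-fold (log2 4.40, SE 0.51, adjusted p = 0.00245, edgeR) and 23.3-fold (log2 4.54, SE 0.25, adjusted p = 8.11e-06). iCEC and pCEC overlapped, with a difference of -0.16 on the log2 scale (SE 0.41).

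Cxcl16, the ligand of CXCR6, was at 8.67, 8.80 and 13.504 CPM in pNCC, 71.6, 125 and 98.4 CPM in iCEC and 13.8, 11.6 and 15.5 CPM in pCEC. It was high in iCEC alone: 9.63-fold over pNCC (log2 3.27, SE 0.35, adjusted p = 0.00195, edgeR) and 6.66-fold over pCEC (log2 2.74, SE 0.29, adjusted p = 0.00309). pCEC and pNCC overlapped (adjusted p = 0.105, and 1.73-fold higher in pCEC with an adjusted p of 0.0194 without pNCC 3). Both calls held when each library was left out, and iCEC 3 was not low for Cxcl16. The gene overlaps Zmynd15 on the other strand.

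Members of the IL-1 family were low in pNCC as a sum and higher in the other groups, with a different leading gene in each. Their summed level was 8.91 to 23.9 CPM in pNCC, 921, 538 and 33.6 CPM in iCEC 1, 2 and 3, and 87.6 to 140 CPM in pCEC. Il1rn and Il18 were called higher in iCEC than in pNCC (16.1% of all genes higher), and Il1a, Il1b, Il1rn and Il18 in pCEC (30.3% of all genes higher). Il1rn (chromosome 2, 24336853 to 24351494, plus strand), the receptor antagonist that blocks IL-1 signalling, was at 2.55, 3.05 and 2.34 CPM in pNCC, 192, 338 and 9.43 CPM in iCEC and 17.8, 11.3 and 16.6 CPM in pCEC. Even iCEC 3 was above pNCC, though below every pCEC library. Il1rn was 73.4-fold higher in iCEC (log2 6.20, SE 1.33, adjusted p = 0.0170, edgeR; up to 0.0791 with 1 library left out) and 6.28-fold higher in pCEC (log2 2.65, SE 0.24, adjusted p = 7.75e-05) than in pNCC. Without iCEC 3 it was 17.2-fold higher in iCEC than in pCEC (adjusted p = 0.000665, edgeR), and with it the difference was not called (adjusted p = 0.0766).

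Il33 (chromosome 19, 29925114 to 29960718, plus strand), a nuclear alarmin released by damaged barrier cells, was at 18.7, 8.30 and 3.51 CPM in pNCC, 685, 142 and 10.2 CPM in iCEC and 4.73, 3.83 and 9.71 CPM in pCEC. iCEC 1 and 2 were the high libraries, and iCEC 3 fell within the pNCC range. It missed the threshold against pNCC (28.9-fold, adjusted p = 0.0577, edgeR) and passed it without iCEC 3 (42.5-fold, adjusted p = 0.00652). Against pCEC it was 42.6-fold higher in iCEC (adjusted p = 0.0477, edgeR; up to 0.165 with 1 library left out).

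Il18 (chromosome 9, 50554827 to 50581840, plus strand), which is stored as a precursor and cut by caspase-1, was at 2.36, 1.52 and 1.20 CPM in pNCC, 32.8, 24.5 and 13.6 CPM in iCEC and 71.6, 47.5 and 63.9 CPM in pCEC. The groups did not overlap and stood in the order pNCC, iCEC, pCEC. It was 14.4-fold higher in iCEC (log2 3.85, SE 0.51, adjusted p = 0.00358, edgeR) and 39.5-fold higher in pCEC (log2 5.30, SE 0.29, adjusted p = 8.87e-06) than in pNCC, and 2.75-fold lower in iCEC than in pCEC (adjusted p = 0.0388; up to 0.124 with 1 library left out). Il18 overlaps Bco2 and Tex12 on the other strand.

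Il1a, an alarmin of epithelial cells, was at 0.218, 1.11 and 1.86 CPM in pNCC, 10.6, 33.2 and 0.357 CPM in iCEC and 33.9, 24.3 and 47.9 CPM in pCEC. It was 35.9-fold higher in pCEC than in pNCC (log2 5.17, SE 0.66, adjusted p = 0.000498, edgeR), while iCEC ranged from the pNCC level to the pCEC level (adjusted p = 0.113 against pNCC, and 0.0121 without iCEC 3). Il1b, the IL-1 of activated myeloid cells, was at 0.329, 0.693 and 1.61 CPM in pCEC, had 1 count in iCEC and none in pNCC. Its mean in pCEC was at least 9.85-fold above pNCC (adjusted p = 0.00518, edgeR), and its summed counts there were 97.7 times those of iCEC (95% counting interval 17.0 to 3906). The library with the highest Il1b and Il1a, pCEC 3, also had the highest summed leukocyte markers, through S100a9 (191 CPM) and S100a8 (32.3 CPM), whereas Ptprc (1.22 against 1.095 CPM), Adgre1 and C1qa were highest in pCEC 2. Their part in this was not tested.

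The IL-6 family, whose receptors share the gp130 chain, did not move as a unit. Lif (chromosome 11, 4257557 to 4272514, plus strand) was at 12.2, 14.3 and 14.8 CPM in pNCC, 32.1, 66.5 and 102 CPM in iCEC and 4.76, 5.33 and 5.15 CPM in pCEC. iCEC was above pNCC and pNCC above pCEC in every library. Lif was 4.77-fold higher in iCEC than in pNCC (log2 2.25, SE 0.39, adjusted p = 0.00820, edgeR), 2.48-fold lower in pCEC than in pNCC (log2 -1.31, SE 0.18, adjusted p = 0.000658) and 11.9-fold higher in iCEC than in pCEC (log2 3.58, SE 0.42, adjusted p = 0.00446). iCEC 3 had the highest Lif level of all libraries, in contrast to its low Il33, Cxcl3 and Il1rn.

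Il6, the pro-inflammatory member, was at 9.11, 8.09 and 23.8 CPM in pNCC, 2.13, 0.654 and 0.119 CPM in iCEC and 0, 0.111 and 0.146 CPM in pCEC. It was 13.6-fold lower in iCEC (log2 -3.76, SE 1.09, adjusted p = 0.0437, edgeR; up to 0.140 with 1 library left out) and 146-fold lower in pCEC (log2 -7.19, SE 0.85, adjusted p = 0.000340) than in pNCC. Il6 and Lif therefore moved in opposite directions between iCEC and pNCC. Il11, a target of TGF-β signalling in fibroblasts, was at 1.18, 2.11 and 2.31 CPM in pNCC, 0.459, 0.681 and 1.34 CPM in iCEC and 0.628, 0.832 and 0.292 CPM in pCEC. It was not called in iCEC (adjusted p = 0.135, edgeR) and was 2.92-fold lower in pCEC (adjusted p = 0.0286). That call was lost without pNCC 2, pNCC 3, pCEC 1 or pCEC 3 (adjusted p up to 0.0880), and with pCEC 1 as the sole pCEC library, where the fold was 2.91 (adjusted p = 0.0993).

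Tnf, a strong activator of NF-kB, was at 0, 0.176 and 0.285 CPM in pNCC, 8.01, 73.7 and 2.38 CPM in iCEC and 11.1, 0.721 and 11.4 CPM in pCEC. All libraries of iCEC and pCEC were above all of pNCC, with wide spread inside both. The fitted fold was 192 in iCEC (log2 7.58, SE 1.86, adjusted p = 0.0258, edgeR; up to 0.107 with 1 library left out) and 52.7 in pCEC (log2 5.72, SE 1.28, adjusted p = 0.00677). Tslp, an epithelial cytokine that acts on dendritic cells, lay between 0.560 and 2.50 CPM in all libraries and was called in no comparison.

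The colony-stimulating factors were led by Csf1, which keeps macrophages and their precursors alive. Csf1 (chromosome 3, 107741048 to 107760469, minus strand) was at 318, 349 and 555 CPM in pNCC, 69.3, 41.1 and 40.1 CPM in iCEC and 7.15, 8.38 and 8.36 CPM in pCEC. The groups were clear of each other and tight within. It was 8.06-fold lower in iCEC (log2 -3.01, SE 0.38, adjusted p = 0.00314, edgeR) and 47.0-fold lower in pCEC (log2 -5.55, SE 0.30, adjusted p = 8.44e-06) than in pNCC, and 5.79-fold higher in iCEC than in pCEC (adjusted p = 0.00468). These calls held when each library was left out.

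Csf3, which drives the production of neutrophils, was at 3.51, 5.81 and 3.28 CPM in pNCC, 26.0, 126 and 4.97 CPM in iCEC and 0.180, 0.361 and 5.18 CPM in pCEC. It was not called against pNCC (13.6-fold, adjusted p = 0.0573, edgeR) and was called without iCEC 3 (19.4-fold, adjusted p = 0.00570). Its level in pCEC 3 was again above the other pCEC libraries, and without pCEC 3 it was 13.9-fold lower in pCEC than in pNCC (adjusted p = 0.00215, edgeR). Csf2, which acts on granulocytes and macrophages, was at 18.9 CPM in iCEC 2 and at or below 0.354 CPM in each other library. It could not be tested with all libraries because it did not pass the filter on low counts, and its summed counts in iCEC were 308 times those of pNCC (95% counting interval 84.9 to 2548), nearly all from that 1 library.

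**Figure D3:**
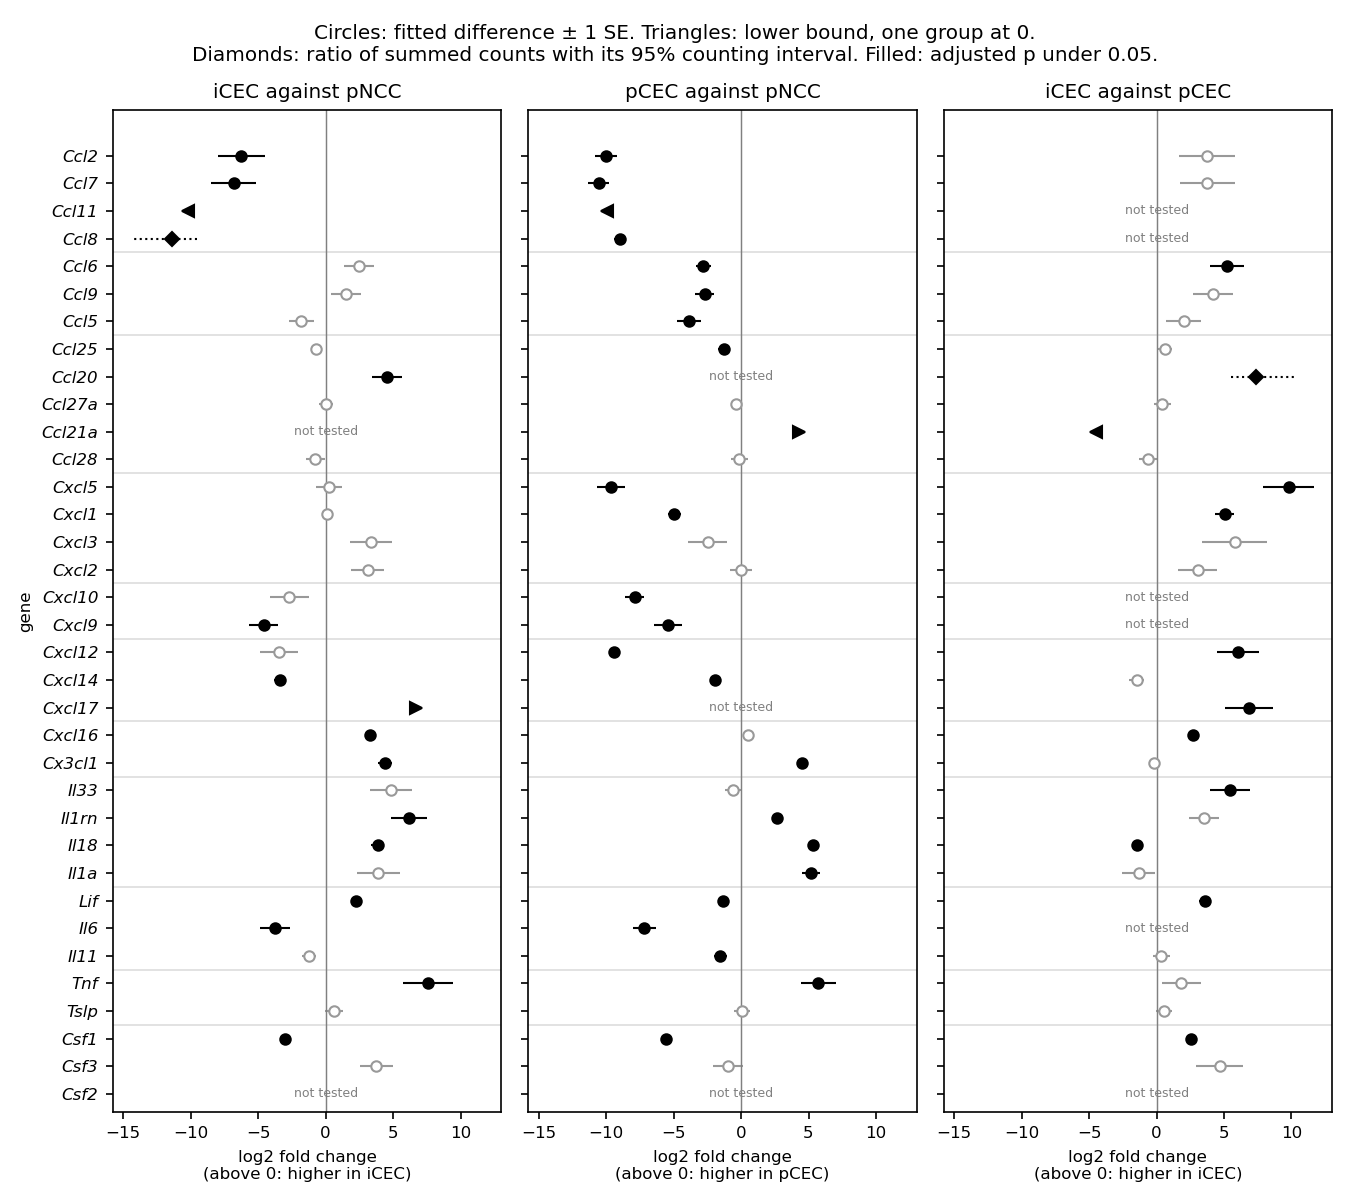
Log2 fold change of each described member in the 3 comparisons (left to right: iCEC against pNCC, pCEC against pNCC, iCEC against pCEC), with 1 SE for fitted values, the lower bound where a group had no count, and the 95% counting interval for ratios of summed counts. Csf1 is below 0 in both comparisons with pNCC (-3.01 and -5.55), and Lif is above 0 in iCEC (2.25) and below it in pCEC (-1.31).

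**Figure D4:**
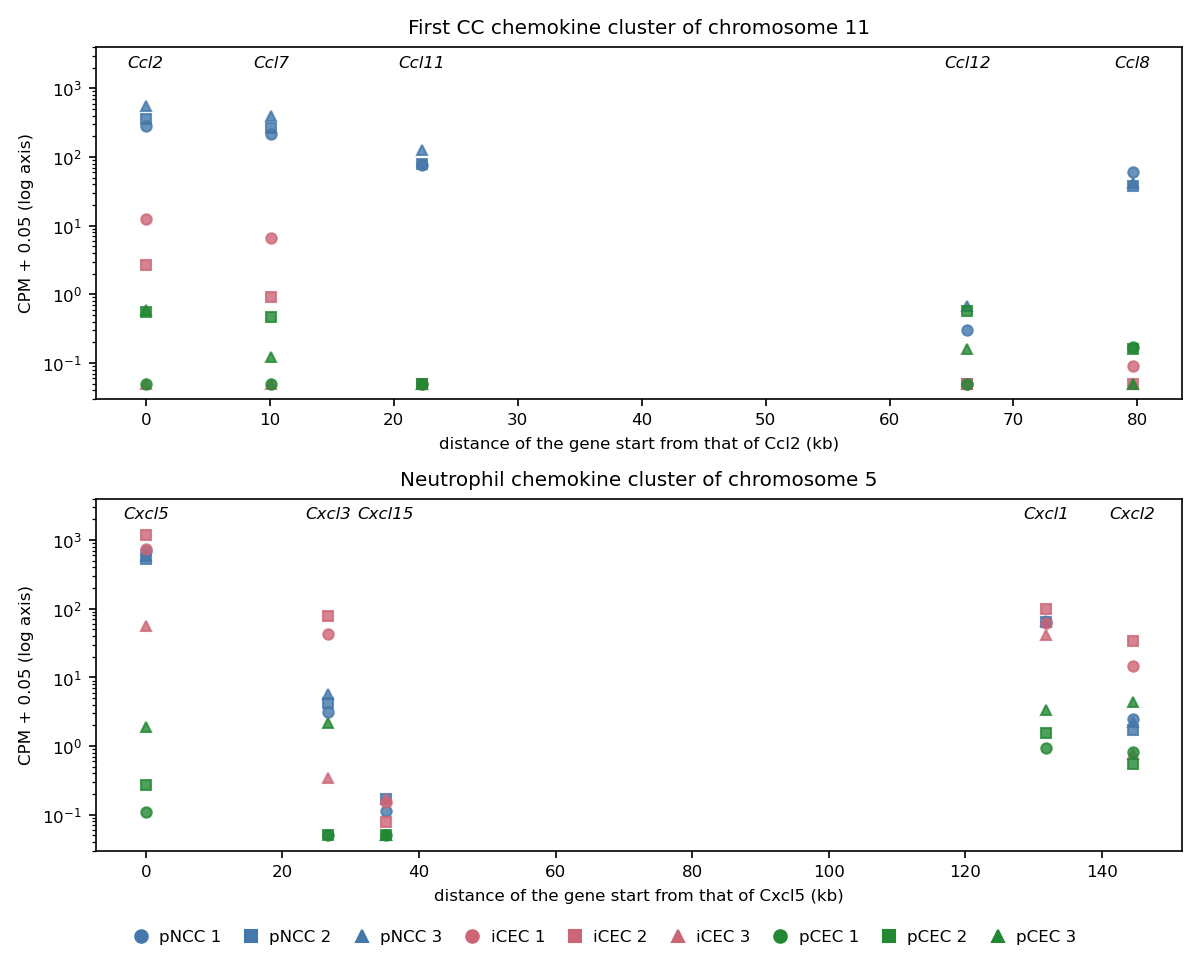
Level in each library (CPM with an offset of 0.05 CPM, log scale; colour is the group and marker shape the replicate) of the chemokine genes of the chromosome 11 and chromosome 5 clusters, against the distance in kb from the start of the cluster's first gene. In the first chromosome 11 group, of 81.2 kb, Ccl2 falls from a mean of 397 CPM in pNCC to 5.00 CPM in iCEC and 0.349 CPM in pCEC.

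Position along the chromosome grouped genes of like level in some clusters and not in others. In the first group on chromosome 11, 4 of 5 genes were high in pNCC and far lower elsewhere, at most 12.4 CPM (Ccl2 in iCEC 1). Ccl12, which lies between Ccl11 and Ccl8, had a mean of 0.292 CPM in pNCC. On chromosome 5, Cxcl15 lies between Cxcl3 and Cxcl1 and did not exceed 0.119 CPM in any library, whereas Cxcl5 and Cxcl1 were at 601 and 64.3 CPM on average in pNCC. These genes share a source library, so their levels are not independent.

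Receptors for these ligands were mostly scarce. Of 23 chemokine receptors, 5 passed the filter in iCEC and pNCC, with 1 higher and 1 lower in iCEC (median log2 fold change 0.73; 31.3% of all genes called), and 7 passed in pCEC and pNCC, with 3 higher and 1 lower in pCEC (median 1.25; 62.5% called). Between iCEC and pCEC, 1 of 7 was higher and 2 lower in iCEC (20.4% of all genes called). Ccrl2, an atypical receptor that holds chemerin at the surface, was at 1.18, 0.352 and 0.400 CPM in pNCC, 14.7, 21.1 and 6.07 CPM in iCEC and 0.479, 1.55 and 2.12 CPM in pCEC. All iCEC libraries lay above the rest, by 22.7-fold over pNCC (adjusted p = 0.00900, edgeR). Cx3cr1, the receptor of the shed or anchored Cx3cl1 and a gene of macrophages, was higher in pCEC than in pNCC (adjusted p = 0.00244, edgeR) and than in iCEC (adjusted p = 0.0173), while Cx3cl1 itself was high in both iCEC and pCEC.

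Receptors of the cytokine members were called about as often as all genes, and Il1rl1, Il1rap, Il1r1, Il6st and Il11ra1 were lower in both iCEC and pCEC than in pNCC. Of 17 tested in each comparison with pNCC, 1 was higher and 5 lower in iCEC (median -0.52; 31.3% of all genes called), and 5 were higher and 6 lower in pCEC (median -0.06; 62.5% of all genes called). Il1rl1 (ST2), the receptor of IL-33, was at 364, 674 and 750 CPM in pNCC, 0.0417, 0.163 and 0 CPM in iCEC and 0, 0 and 0.146 CPM in pCEC. It was lower in iCEC (adjusted p = 0.000747, edgeR) and in pCEC (adjusted p = 1.36e-05), so the group with the highest Il33 levels had almost no counts of its receptor. Il1rap, the co-receptor chain of IL-1 and IL-33, was at 153, 170 and 137 CPM in pNCC, 26.9, 33.4 and 12.4 CPM in iCEC and 10.8, 9.73 and 11.9 CPM in pCEC. Il1r1, which binds IL-1α and IL-1β, was 4.91-fold lower in iCEC (adjusted p = 0.00607, edgeR) and 12.9-fold lower in pCEC (adjusted p = 1.50e-05). Il18r1, the IL-18 binding chain, moved the other way, from 0.187, 0.205 and 0.0571 CPM in pNCC to 2.15, 5.80 and 5.89 CPM in iCEC and 6.70, 5.46 and 9.93 CPM in pCEC (adjusted p = 0.00484 and 6.98e-05, edgeR).

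Il6st, which encodes gp130, the chain shared by IL-6, IL-11 and LIF, was at 964, 640 and 387 CPM in pNCC, 93.8, 103 and 125 CPM in iCEC and 95.8, 78.5 and 73.8 CPM in pCEC. It was 6.15-fold lower in iCEC (adjusted p = 0.00351, edgeR) and 7.30-fold lower in pCEC (adjusted p = 0.000219), with no overlap between pNCC and either group. Il6ra, the IL-6 binding chain, was 1.37-fold higher in pCEC than in pNCC (adjusted p = 0.0426, edgeR) and not called in iCEC (adjusted p = 0.840). Il11ra1 was lower in both groups, by 9.79-fold and 3.86-fold (adjusted p = 0.00174 and 0.000235, edgeR). Lifr, the LIF receptor, was 2.48-fold higher in pCEC than in pNCC (adjusted p = 0.000653, edgeR) and 4.42-fold lower in iCEC than in pCEC (adjusted p = 0.0322), opposite to Lif in both comparisons.

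Among genes that carry the NF-kB signal, Tnfaip3, Nfkbia and Rel were higher and Map3k14 lower in iCEC than in pNCC. Of 18, all tested, 3 were higher and 1 lower in iCEC than in pNCC (median 0.56; 31.3% of all genes called), 6 were higher and 4 lower in pCEC than in pNCC (median 0.13; 62.5% called), and 2 were higher in iCEC than in pCEC (20.4% called). Tnfaip3 (A20), an inhibitor that NF-kB itself induces, was at 10.9, 12.1 and 10.9 CPM in pNCC, 42.6, 69.3 and 73.7 CPM in iCEC and 29.2, 10.9 and 27.7 CPM in pCEC, 5.48-fold higher in iCEC than in pNCC (adjusted p = 0.00163, edgeR). Nfkbia, the inhibitor IκBα, was at 36.2, 43.8 and 39.3 CPM in pNCC and 155, 247 and 56.3 CPM in iCEC (4.06-fold, adjusted p = 0.0428, edgeR). In pCEC, Nfkbia was at 52.0, 70.4 and 68.8 CPM. Both genes were also higher in pCEC than in pNCC, Tnfaip3 2.19-fold (adjusted p = 0.0274, edgeR) and Nfkbia 1.76-fold (adjusted p = 0.00399). Neither was called between iCEC and pCEC (adjusted p = 0.0651 and 0.185, edgeR). iCEC 3 was the lowest iCEC library for Nfkbia, while for Tnfaip3 it was close to iCEC 2. Rel, an NF-kB subunit, was 2.92-fold higher in iCEC (adjusted p = 0.00466, edgeR) and 4.496-fold higher in pCEC (adjusted p = 9.55e-05) than in pNCC, and Map3k14, the kinase of the non-canonical branch, was 3.02-fold and 2.71-fold lower (adjusted p = 0.00480 and 0.000738).

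Of 15 inflammasome genes, which process IL-1 family precursors, 7 were tested in iCEC and pNCC, with 3 higher in iCEC (median 1.52; 31.3% of all genes called), and 8 in pCEC and pNCC, with 4 higher and 2 lower in pCEC (median 0.14; 62.5% called). Casp1, the protease that cuts pro-IL-1β and pro-IL-18, was at 3.73, 4.37 and 3.14 CPM in pNCC, 56.6, 103 and 65.3 CPM in iCEC and 0.359, 0.333 and 2.85 CPM in pCEC, 20.6-fold higher in iCEC than in pNCC (adjusted p = 0.000940, edgeR) and 58.2-fold higher than in pCEC (adjusted p = 0.0127). Casp1 and its substrate Il18 thus ranked the groups differently: pCEC had the highest Il18 and the lowest Casp1 levels, the latter not called against pNCC. Pycard (ASC), the adaptor of inflammasomes, was at 1.06, 0.792 and 0.228 CPM in pNCC, 18.7, 19.4 and 1.34 CPM in iCEC and 45.5, 33.5 and 35.9 CPM in pCEC (20.3-fold and 60.9-fold over pNCC, adjusted p = 0.0351 and 3.90e-05, edgeR).

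Of 13 tested genes for Toll-like receptors and adaptors, 4 were higher and 1 lower in iCEC than in pNCC (median 0.38), and 5 were higher and 2 lower in pCEC than in pNCC (median 0.37), shares near the 31.3% and 62.5% called over all genes. Cd14, the co-receptor for lipopolysaccharide, was at 4.41, 3.99 and 4.05 CPM in pNCC, 366, 499 and 47.7 CPM in iCEC and 4.07, 4.16 and 4.89 CPM in pCEC. It was 78.2-fold higher in iCEC than in pNCC (adjusted p = 0.00634, edgeR) and 66.1-fold higher than in pCEC (adjusted p = 0.00948), with iCEC 3 again the lowest of its group and still above all other libraries. Cd14 is also a gene of monocytes and macrophages; of the leukocyte markers, Cd68 was at 30.9, 51.9 and 2.80 CPM and Ptprc at 0 in the iCEC libraries, and their part in this was not tested.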

How the data were processed

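RNA sequencing of 9 mouse libraries (paired reads of 150 bases) was available as 1 table. The authors deposited raw counts per gene symbol, with no normalization. The genome build mm10 and edgeR are named per the submitters' processing notes. The aligner, the counting tool, its use of strand and the annotation are not given in the sources used here. Among counts of 1 to 20, 68.3% to 73.0% were even numbers, as when both reads of a pair are counted, so counting intervals may be too narrow, and they cover counting error only. Groups and replicate numbers came from the sample titles, and 0 sample columns were left unused.

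Each comparison was fitted on its 6 libraries in R 4.3.3 with edgeR 4.0.16 (filterByExpr, TMM, robust quasi-likelihood fit, 2-sided test). Benjamini-Hochberg adjustment ran over all genes tested. The fit was also run on simulated data with the same dispersion for every gene and no outlying library. That run does not cover a library like iCEC 3. CPM are counts scaled to the library total, and SE is the fold change's size on the log2 scale over the root of F. Where a group had no count, a fold is a lower bound at 3 counts per library, and for a group with 1 to 3 counts the summed counts are compared, with a 95% exact interval of their ratio. The medians of log2 fold changes printed here were the same with such genes at their bound. Positions and exon lengths came from GENCODE M21, which held 50 of the 51 symbols. Promoters came from RefSeq (GRCm38.p6), with 38 members in the table. Within each group, pairs of libraries differed by more than counting error (chi-square per degree of freedom 43.4 to 610). This does not show whether replicates came from separate animals or cultures.

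Every member with a mean of at least 1 CPM in 1 group was described in full, and Il1b was added after its calls were seen. Of the other lists, up to 4 called genes with the smallest adjusted p per comparison could be named. Their calls are given with all libraries only, so how far those calls depend on 1 library is not shown. Members and lists were chosen with earlier results of these data known. Alternatives were each library left out, pCEC 1 alone, a replicate block, one fit over all 9 libraries, the size factors and the Wald test of DESeq2 1.42.0, testing every gene with a count, and requiring 1 CPM in 3 libraries. Python 3.11.15 was used for tables and figures.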

Additional observations from a re-analysis of the deposited data

How the results depend on the processing

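Main counts were 5093 genes, 8 members higher and 8 lower for iCEC against pNCC, 10382, 7 and 18 for pCEC against pNCC, and 3327, 10 and 3 for iCEC against pCEC. Counts that moved by more than 1.5 times are given here; the cause was not tested. For iCEC against pNCC, DESeq2's Wald test called 14 members higher, and without a filter on low counts 5 were higher and 5 lower. With 1 library left out, calls ran from 2322 to 7684 genes, 4 to 15 members higher and 4 to 10 lower; the low end came from leaving out a pNCC library and the high end from leaving out iCEC 3. For pCEC against pNCC, the filter of 1 CPM in 3 libraries left 4 members higher, and leaving out 1 library gave 9207 to 10687 genes, 7 to 8 members higher and 16 to 19 lower. For iCEC against pCEC, 5 members were higher without a filter and 1 was lower with the filter of 1 CPM in 3 libraries; leaving out 1 library gave 1131 to 4974 genes, 4 to 15 members higher and 0 to 3 lower, with the low end from leaving out pCEC libraries. With pCEC 1 alone, 0 genes, 0 members higher and 0 lower were called there.

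Replicate numbers did not pair the libraries (same-numbered correlations -0.181 to 0.0714). A replicate block gave 2864 genes with 6 members higher and 4 lower for iCEC against pNCC, 9777 with 8 and 17 for pCEC against pNCC, and 1295 with 4 and 1 for iCEC against pCEC.

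No member called with all libraries changed direction under any alternative. Cxcl2 between pCEC and pNCC, not called with all libraries, had a log2 fold change of -0.01 and turned positive with DESeq2 size factors (0.041), the Wald test (0.053), no filter (0.01), the filter of 1 CPM (0.014), all 9 libraries (0.039) and 4 of the 6 omissions (0.043, 0.093, 0.438 and 0.501); without pCEC 3 it was -1.594 and called. Over the described members called in at least 1 setting, 732 values kept their direction and side of the threshold, 109 lost a call and 34 gained one. Members called in no setting numbered 8 for iCEC against pNCC, 4 for pCEC against pNCC and 11 for iCEC against pCEC, and the sign changed in 4, 4 and 6 of them. Folds of called members could move widely with 1 library left out, as for Cxcl12 between iCEC and pCEC (log2 2.79 to 6.59) and Tnf between iCEC and pNCC (5.02 to 8.38). Fitted values also ranged for Ccl20 between iCEC and pCEC (5.72 to 10.06) and Cxcl9 between pCEC and pNCC (-9.04 to -4.81). These genes had pCEC counts in 1 library alone, and without it pCEC had no count and the fitted fold is not a measured one. Differences below 3 counts per library (0.0625 to 0.110 CPM) were not detectable at this depth.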
